A study of Homo sapiens with 36 samples.

Results

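MYO1E, LDHAL6B and FAM81A lie beside or inside each other on the long arm of human chromosome 15, with RNF111 and CCNB2 next to them on 1 side. These 5 genes, of 74628 in the deposited table of counts, were chosen because the first 3 were lower with the RELA guide in earlier results of these data, and the other two because they flank them. The difference between guides is therefore a description of the 3 lower genes, given without a test. The differences between days within a guide were not themselves the rule for the choice and were tested. They use the same samples as the difference between guides, so for the 3 lower genes these tests are not independent of the choice. All 5 genes passed the filter on low counts. LDHAL6B passed it only through sgControl, where 6 of 9 RNA samples held at least 10 counts against 0 of 9 with sgRELA, so it had to differ between guides.

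The cells were Jurkat, a human T-lymphocyte leukaemia line, and in every group they stably expressed dCas9-VP64, which is a cutting-dead Cas9 joined to a transcriptional activation domain. Their genotype is labelled mCherry+. They received a lentiviral pXPR-based vector with one of the guide RNAs, sgRELA, which targets RELA, or sgControl, which is labelled non-targeting, were selected with puromycin for 3 days and were harvested on day 5, 6 or 7 after transduction. There were 6 groups with 3 biological replicates in each, and each of the 18 RNA samples gave 2 libraries made by RamDA-seq, a full-length total RNA method, from 100 pg of RNA. The labels name 1 guide per arm and 1 stable line, so an effect of the guide's sequence and an effect of RELA cannot be told apart.

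MYO1E encodes myosin IE, a class I motor that binds membranes through its tail and pulls on actin, and is known for clathrin-mediated endocytosis, for cell adhesion and, in podocytes, for the kidney filter. LDHAL6B is an intronless member of the lactate dehydrogenase family known from testis, and FAM81A is a coiled-coil protein best described at synapses. RNF111 (Arkadia) is a ubiquitin ligase that targets inhibitors of TGF-beta signalling such as SKIL and SMAD7, and CCNB2 encodes cyclin B2, a partner of CDK1 in mitosis whose transcript rises and falls with the cell cycle.

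In GENCODE v29 on GRCh38, RNF111 occupies chr15:58865175-59097419 and CCNB2 occupies chr15:59105078-59125045, both on the plus strand and 7658 bases apart. MYO1E follows after 7388 bases at chr15:59132434-59372900 on the minus strand, so CCNB2 and MYO1E point at each other. LDHAL6B has 1 exon, at chr15:59206823-59208515 on the plus strand, inside MYO1E and antisense to it, 164385 bases from the MYO1E start and with 0 exons that overlap an exon of MYO1E. FAM81A, at chr15:59372693-59523549 on the plus strand, starts back to back with MYO1E, and the 2 genes overlap by 208 bases. Of its 15 annotated transcripts, 2 start within 1 kb of the MYO1E start and the other 13 start at least 65273 bases further on. The overlapping stretch holds 2 pairs of exons on opposite strands, and the strand setting of the counting is not given in the sources used here, so the counts of MYO1E, LDHAL6B and FAM81A may hold reads of each other.

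The 250 bases before the RefSeq start of each gene on GRCh38.p14 are shown for the 4 genes that differed between guides or between days, 5′ to 3′ on the gene's own strand. Capitals mark matches to any of the 6 motifs searched on both strands. MYO1E covers chr15:59372872-59373121 (minus strand), LDHAL6B chr15:59206593-59206842 (plus), FAM81A chr15:59437936-59438185 (plus) and CCNB2 chr15:59104896-59105145 (plus).
MYO1E: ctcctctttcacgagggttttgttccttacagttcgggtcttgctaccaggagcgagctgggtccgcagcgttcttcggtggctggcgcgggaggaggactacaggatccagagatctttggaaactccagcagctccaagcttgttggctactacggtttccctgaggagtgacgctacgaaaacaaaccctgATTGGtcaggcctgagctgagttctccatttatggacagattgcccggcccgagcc
LDHAL6B: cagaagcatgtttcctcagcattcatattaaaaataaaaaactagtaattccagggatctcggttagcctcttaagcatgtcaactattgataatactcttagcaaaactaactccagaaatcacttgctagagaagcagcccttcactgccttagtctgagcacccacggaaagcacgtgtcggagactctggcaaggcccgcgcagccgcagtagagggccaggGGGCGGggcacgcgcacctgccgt
FAM81A: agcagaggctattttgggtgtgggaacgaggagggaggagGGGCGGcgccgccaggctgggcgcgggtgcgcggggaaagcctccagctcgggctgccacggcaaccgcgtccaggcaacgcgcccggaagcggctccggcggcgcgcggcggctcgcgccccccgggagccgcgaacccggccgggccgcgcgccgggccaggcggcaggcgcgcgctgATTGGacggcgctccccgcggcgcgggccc
CCNB2: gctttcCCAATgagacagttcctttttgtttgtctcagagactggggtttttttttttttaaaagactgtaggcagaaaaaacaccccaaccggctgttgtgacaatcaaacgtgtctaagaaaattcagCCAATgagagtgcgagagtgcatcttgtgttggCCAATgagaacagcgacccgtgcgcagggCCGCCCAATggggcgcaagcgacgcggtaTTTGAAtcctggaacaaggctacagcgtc
The MYO1E stretch also contains a start of FAM81A: transcript FAM81A-213 begins 124 bases upstream of the RefSeq start of MYO1E and runs the other way. The FAM81A stretch printed above belongs to the start 65315 bases away.

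One motif was the kappaB consensus bound by RELA and its relatives, and another the AP-1 site, TGACTCA. The CCAAT box was searched by the letters of its name. The core of the cell cycle homology region was searched as TTTGAA. The GC box was searched as GGGCGG. The TATA box was searched as TATAAA. CCNB2 had 4 matches to CCAAT, first bases at -244, -120, -87 and -54 from the start, and 1 match to TTTGAA at -29. Its GC box match, on the opposite strand at -58, overlaps the last CCAAT. MYO1E had 1 match, a CCAAT on the opposite strand at -56, and FAM81A had a CCAAT on the opposite strand at -30 and a GC box at -210. LDHAL6B had a GC box at -24. Among all 35116 promoter windows of 300 bases in the RefSeq table, 34.6% held a CCAAT box, 15.2% the cell cycle motif, 45% a GC box, 5.91% the kappaB consensus, 4.95% an AP-1 site and 11.5% a TATA box. No match to the last 3 was found in the 6 windows of the 5 genes, which says only that these letters are not in the windows. GC content was 55.3% for MYO1E, 51.7% for LDHAL6B, 81% for FAM81A and 52% for CCNB2, against a median of 58.7%.

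Totals of single libraries were 7586205 to 13671902 with sgControl and, with sgRELA, 8822904 to 16124473. RELA, the gene targeted by the guide, was at 33.3 ± 5.28, 24.0 ± 6.01 and 24.7 ± 2.14 CPM (depth-scaled counts, mean ± SD, n = 3) in sgControl on days 5, 6 and 7 and at 293.7 ± 28.2, 201.1 ± 19.4 and 127.2 ± 8.16 CPM in sgRELA. The labels of the guides were thus matched by RELA in all 18 RNA samples. All 12 T-lineage markers were detected, with summed levels of 3597 to 4697 CPM in sgControl and 3756 to 4908 CPM in sgRELA. CD28, a costimulatory receptor of T cells, was the only one called between guides across days, at 54.3 to 84.8 CPM in sgControl and 77.3 to 101.6 CPM in sgRELA (log2 fold change 0.31, adjusted p = 0.0177, edgeR, and called by DESeq2). Among the B-cell markers, CD79A was at 16.4 to 26.2 CPM in sgControl and 48.2 to 62.6 CPM in sgRELA, while CD79B, MS4A1 and PAX5 reached at most 1.145 CPM in any RNA sample and CR2 at most 6.01 CPM. Myeloid, erythroid, and epithelial and stromal lists summed to 0.395 to 2.42, 3.64 to 11.8 and 4.19 to 10.9 CPM in sgControl and to 1.21 to 4.08, 4.45 to 9.74 and 2.27 to 10.8 CPM in sgRELA, with HBA1, HBB, EPCAM and COL1A2 at 0 in every library. Whether the CD28 and CD79A differences have a part in the results at the locus was not tested.

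MYO1E was lower in every sgRELA sample than in any sgControl sample, and the difference was largest on day 5 and smallest on day 7. The gene was chosen for being lower, so this is a description. The shares of all genes without overlap given below are for 3 against 3 samples or sums. No such share was computed for all sgRELA samples against all sgControl samples, here or for LDHAL6B below. In sgControl the 3 replicates read 48.9, 44.1 and 55.6 CPM on day 5, 49.9, 43.2 and 49.1 CPM on day 6, and 47.6, 36.1 and 38.1 CPM on day 7. In sgRELA they read 20.0, 16.2 and 13.99 CPM on day 5, 21.9, 23.6 and 18.7 CPM on day 6, and 29.3, 32.4 and 28.8 CPM on day 7. The highest sgRELA sample, from day 7, lay below the lowest sgControl sample, also from day 7, and the group closest to sgControl was sgRELA on day 7. Group means were 49.5 ± 5.75, 47.4 ± 3.69 and 40.6 ± 6.16 CPM in sgControl against 16.7 ± 3.03, 21.4 ± 2.51 and 30.1 ± 1.94 CPM in sgRELA (SD, n = 3). In bulk RNA, fewer cells with the transcript and less transcript per cell cannot be told apart.

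**Figure D1:**
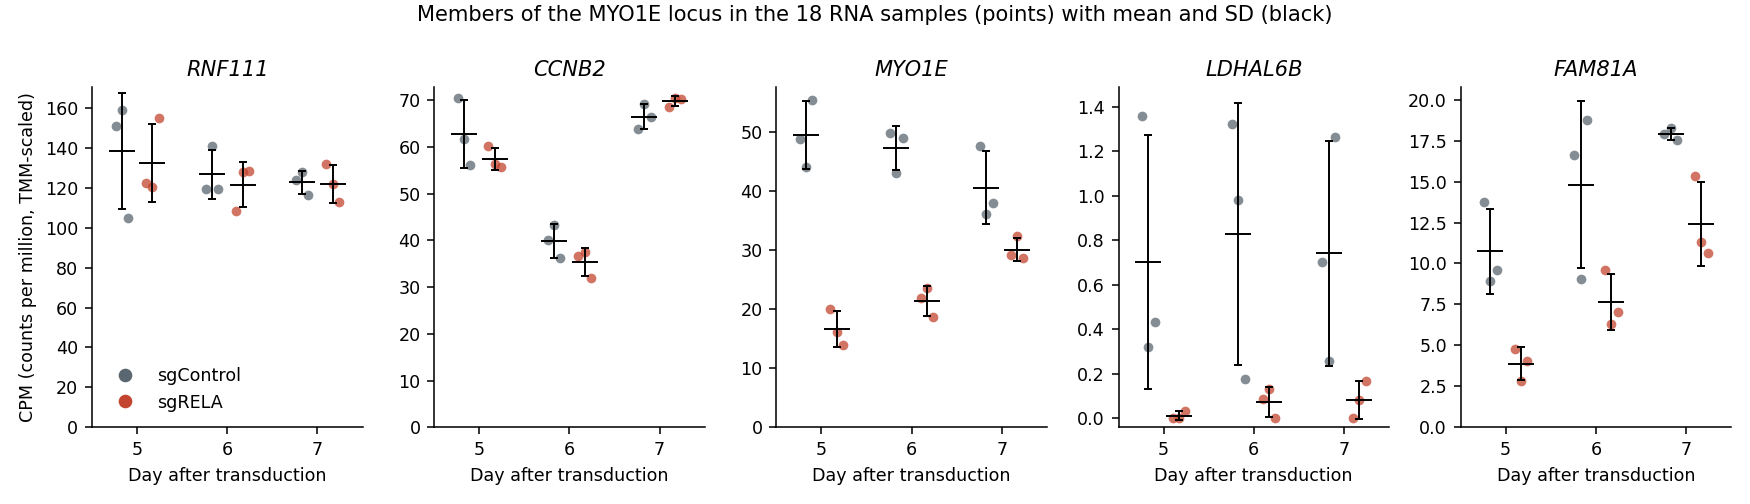
Level of the 5 genes in CPM (y axis, 1 panel per gene with its own scale) by day after transduction (x axis) in sgControl (grey) and sgRELA (red), 1 point per RNA sample, with mean and SD of 3 replicates in black. MYO1E and LDHAL6B show no overlap between guides on any day, RNF111 overlaps on every day, and CCNB2 is lowest on day 6 with both guides.

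The difference in MYO1E between guides on the log2 scale was -1.57 ± 0.16 (SE) on day 5, -1.15 ± 0.15 on day 6 and -0.43 ± 0.15 on day 7, or 2.97-fold lower on day 5. Across days, with counts added over libraries and days, it was -1.01 ± 0.09. On day 5 the value was -1.28 in the first library of each RNA sample and -1.84 in the second. Of all genes tested, 0.0363% were called lower with sgRELA on day 5, 0.0617% on day 6, 0.0254% on day 7 and 0.121% across days (edgeR's quasi-likelihood test, Benjamini-Hochberg adjusted p under 0.05). Because the locus was chosen by this difference, nothing is read from that background. The share of genes whose replicates were all lower with sgRELA, with no overlap, was 5.17% on day 5, 5.39% on day 6, 5.2% on day 7 and 5.94% across days.

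The single libraries showed the same order on days 5 and 6. On day 5 they ran from 38.9 to 72.5 CPM in sgControl and from 12.4 to 20.0 CPM in sgRELA, and on day 6 from 38.1 to 53.0 and from 16.5 to 27.6 CPM. On day 7 the ranges overlapped, with 31.1 to 51.8 CPM in sgControl and 23.5 to 35.1 CPM in sgRELA: sgRELA libraries at 35.1, 33.4 and 31.2 CPM lay above the lowest sgControl library.

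FAM81A, some of whose annotated transcripts start beside MYO1E, was also lower with sgRELA, and the difference was again largest on day 5. The sgControl replicates read 13.7, 8.91 and 9.58 CPM on day 5, 16.6, 9.07 and 18.8 CPM on day 6, and 17.9, 18.3 and 17.5 CPM on day 7. The sgRELA replicates read 4.78, 2.80 and 4.06 CPM, then 9.61, 6.31 and 7.06 CPM, then 15.4, 11.3 and 10.6 CPM. The guides did not overlap on days 5 and 7, but on day 6 the second sgControl replicate lay below the first sgRELA replicate. Which of its starts is used in these cells was not tested. The log2 fold change between guides was -1.47 ± 0.28 on day 5, -0.95 ± 0.27 on day 6 and -0.53 ± 0.26 on day 7, and -0.87 ± 0.16 across days. The day 5 value was -0.86 in the first library of each RNA sample and -2.24 in the second.

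Counts of FAM81A per 100 counts of MYO1E moved with the day more than with the guide. The sums gave 21.7, 31.2 and 44.1 on days 5, 6 and 7 in sgControl and 23.5, 35.8 and 41.4 in sgRELA. Over all days they were 31.9 in sgControl, with single RNA samples from 17.2 to 50.6, and 35.1 in sgRELA, with samples from 17.3 to 52.5. The ranges of the guides thus nearly coincide. Both genes were chosen for being lower with sgRELA, so this likeness partly follows from the choice and is only a description. The ratio is one of counts, not of levels per length.

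LDHAL6B had few counts in sgControl and fewer in sgRELA. The sgControl replicates held 31, 7 and 10 counts on day 5, 27, 22 and 4 on day 6, and 17, 6 and 32 on day 7. The sgRELA replicates held 0, 0 and 1 counts on day 5, 2, 3 and 0 on day 6, and 0, 2 and 4 on day 7. Scaled to depth, each sgControl sample lay above each sgRELA sample, at 0.177 to 1.36 CPM against 0 to 0.168 CPM, and the closest pair came from different days. In all, 156 counts stood against 12, a ratio of 13.8 after correction for the total count, given as a description since this difference chose the gene. By day there were 48 against 1, 53 against 5 and 55 against 6 counts.

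The LDHAL6B counts were uneven between libraries: 13 of 18 sgControl libraries and 8 of 18 sgRELA libraries held any. A single library supplied 31 of the 48 counts of sgControl on day 5 and another 32 of the 55 on day 7. Per 100 counts of MYO1E there were 1.66 counts of LDHAL6B in sgControl and 0.244 in sgRELA. The ranges over RNA samples, 0.361 to 3.32 and 0 to 0.583, overlapped.

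Other low-count rows inside the spans of MYO1E and FAM81A had the same direction, and these rows were picked after their values were seen and did not pass the filter, so they carry no test. AC092868.2 (ENSG00000259735), within MYO1E near its start, had 75 counts in sgControl, spread over 15 of 18 libraries, and 4 in sgRELA, all in 1 library. AC092756.1 (ENSG00000259771), deeper inside MYO1E, had 18 counts in 4 libraries against 0. With 0 set to 3 counts over the group the ratio is 6.35, which rests on that chosen floor and is not a lower bound. AC092868.3 (ENSG00000259750), inside the long form of FAM81A and 28.3 kb beyond the MYO1E start, had 40 counts in 6 libraries against 1. MIR2116, also within MYO1E, had 2 counts against 1, too few for a comparison. The libraries with counts were few for each of these rows except AC092868.2. AC092868.2 and AC092756.1 are annotated as intronic on the strand of MYO1E. Whether their counts are reads of unspliced MYO1E was not tested.

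**Figure D2:**
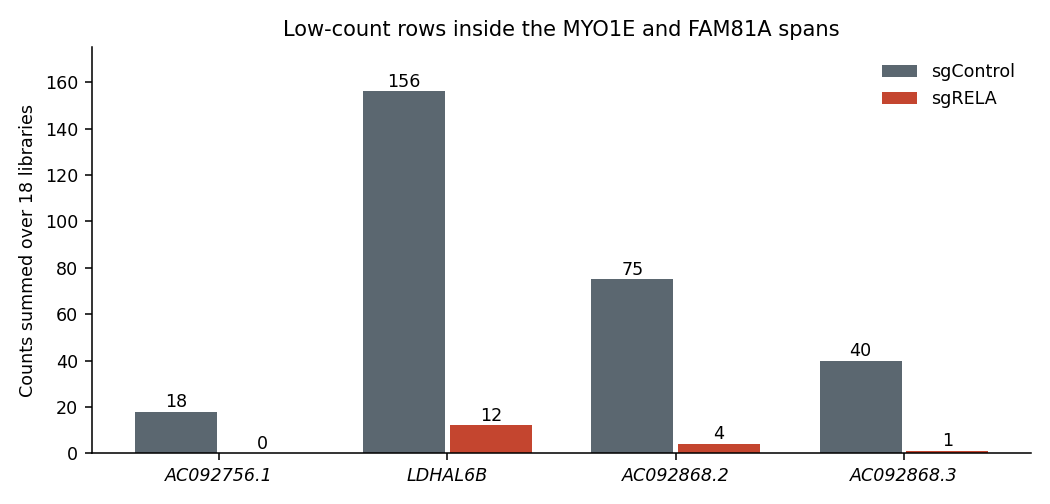
Counts summed over the 18 libraries of each guide (y axis) for 4 rows inside MYO1E or FAM81A, sgControl in grey and sgRELA in red. LDHAL6B has 156 counts in sgControl and 12 in sgRELA, and each of the other rows has at most 4 counts in sgRELA.

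The flanking genes RNF111 and CCNB2 overlapped between guides on every day. RNF111 ran from 105.1 to 158.8 CPM in the 9 sgControl samples (median 123.7) and from 108.4 to 155.0 CPM in the 9 sgRELA samples (median 122.3). Its log2 fold change between guides was -0.06 ± 0.12 on day 5, -0.06 ± 0.12 on day 6, -0.01 ± 0.12 on day 7 and -0.03 ± 0.07 across days. CCNB2 differed by -0.13 ± 0.12 on day 5, -0.17 ± 0.12 on day 6, 0.07 ± 0.11 on day 7 and -0.04 ± 0.07 across days. Neither gene was more than 2 SE from 0 on any day.

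Between 1 Mb before RNF111 and 1 Mb after FAM81A, 63 other annotated genes were in the table and 36 could be tested across days. None of the 36 was called between guides by edgeR's quasi-likelihood test, against 0.363% of all genes called in either direction, and 2 had an unadjusted p under 0.05, against 6.74% of all genes. Of the 36, 23 had a log2 fold change below 0, with a median of -0.07 against -0.00 over all genes tested. The 2 genes were AC090515.5 (ENSG00000259402), at -0.82 ± 0.30, and the pseudogene RPS3AP6, at -0.25 ± 0.12. DESeq2 also called 0 of the 36.

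The nearest tested genes on the side of RNF111 were AC090515.5, MINDY2, a deubiquitinase at -0.06 ± 0.06, and its divergent transcript AC090515.2 at -0.48 ± 0.91. On the side of FAM81A they were GCNT3, a mucin glycosyltransferase at 0.72 ± 0.90 from 34 and 59 counts, GTF2A2, a subunit of the general transcription factor TFIIA at 0.14 ± 0.10, and BNIP2 at 0.06 ± 0.05. SLTM, a nuclear RNA-binding protein encoded inside the span of RNF111, was at 0.03 ± 0.06. AC092757.2 (ENSG00000259732), whose span reaches across the 3′ ends of CCNB2 and MYO1E, had 82 counts in sgControl and 26 in sgRELA, a log2 fold change of -1.73 ± 0.92 that did not pass the test (unadjusted p = 0.0745). AC092757.3 (ENSG00000277144), beside it, was at -0.53 ± 0.49, AC092757.1 at -0.43 ± 0.70 and AC025918.1 at -0.13 ± 0.47. MINDY2, SLTM, GTF2A2 and BNIP2, each with at least 3815 counts per guide, thus lay within 0.15 log2 units of 0.

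**Figure D3:**
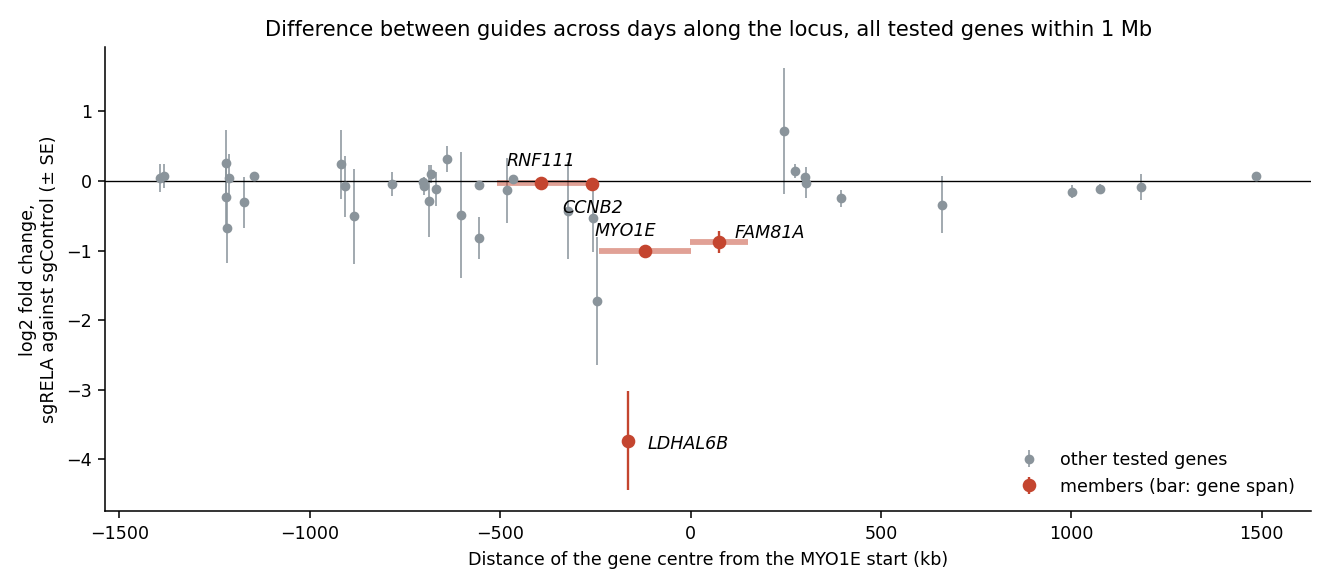
Log2 fold change of sgRELA against sgControl across days (y axis, ± SE) against the distance of each gene's centre from the MYO1E start (x axis, kb), for the 5 members (red, horizontal bar for the gene's span) and 36 other tested genes (grey). MYO1E at -1.01, FAM81A at -0.87 and LDHAL6B at -3.73 lie below 0, and RNF111 and CCNB2 lie on it. The LDHAL6B point is a fitted value from 156 and 12 counts, and is -2.50 in the first libraries alone and -4.70 in the second.

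MYO1E rose from day 5 to day 7 and from day 6 to day 7 in sgRELA, and no difference between days passed the test in sgControl. In sgRELA the log2 fold change of day 7 against day 5 was 0.85 ± 0.15 (adjusted p = 0.00023), and that of day 7 against day 6 was 0.49 ± 0.15 (adjusted p = 0.031). All 3 replicates of day 7 lay above all of day 5 and of day 6, as did those of 15.1% and 14.6% of all genes. The step from day 5 to day 6 was 0.36 ± 0.16 (adjusted p = 0.189). In sgControl the 3 steps were -0.06 ± 0.15 (day 6 against 5, adjusted p = 0.883), -0.22 ± 0.15 (7 against 6, 0.404) and -0.29 ± 0.15 (7 against 5, 0.246). The rise from day 6 to day 7 in sgRELA lost its call in 5 of the 6 fits without 1 RNA sample, all but that without day 6 replicate 2, with adjusted p between 0.0523 and 0.171. It was also lost in either set of libraries alone, and over all alternatives the adjusted p ran from 0.00872 to 0.398. The rise from day 5 to day 7 held without any 1 RNA sample but not in the first libraries alone, where it was 0.70 ± 0.24 (adjusted p = 0.127, the highest over all alternatives, from 7.62e-07).

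FAM81A in sgRELA was higher on day 6 than on day 5, by 0.98 ± 0.28 (adjusted p = 0.0266), and 3.2-fold higher on day 7 than on day 5, at 1.68 ± 0.28 (adjusted p = 6.79e-05). Day 7 differed from day 6 by 0.70 ± 0.27 (adjusted p = 0.0944). In sgControl the differences were 0.46 ± 0.27, 0.27 ± 0.26 and 0.74 ± 0.27 for day 6 against 5, day 7 against 6 and day 7 against 5 (adjusted p = 0.341, 0.605 and 0.0653), with all 3 day 7 samples above all 3 day 5 samples, as for 14.7% of all genes. Without the first sgControl replicate of day 5 the last of these passed, at 0.96 ± 0.30 (adjusted p = 0.0387, and 0.0326 to 0.339 over all alternatives). The call from day 5 to day 6 in sgRELA was lost without day 5 replicate 2 (adjusted p = 0.153), without day 5 replicate 3 (0.0678) and without day 6 replicate 1 (0.167), and over all alternatives the adjusted p ran from 0.00547 to 0.767. In the first libraries alone the rise to day 7 was 1.35 ± 0.44 (adjusted p = 0.104, the highest over all alternatives, from 1.48e-08).

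CCNB2 fell from day 5 to day 6 and rose again by day 7 with both guides. In sgControl the replicates read 70.5, 61.6 and 56.2 CPM on day 5, 40.1, 43.3 and 36.2 CPM on day 6, and 63.8, 69.1 and 66.5 CPM on day 7. In sgRELA they read 60.1, 56.3 and 55.7, then 36.6, 37.5 and 32.0, then 68.5, 70.5 and 70.3 CPM. All day 6 samples lay below all samples of the other days. Of all genes, 11.5% in sgControl and 13.4% in sgRELA had all day 6 samples below those of day 5, and 13.9% and 14.6% had all day 7 samples above those of day 6. The log2 fold change from day 5 to day 6 was -0.65 ± 0.12 in sgControl (adjusted p = 0.000327) and -0.70 ± 0.12 in sgRELA (0.000171), and from day 6 to day 7 it was 0.74 ± 0.12 (2.1e-05) and 0.98 ± 0.12 (2.58e-07). Day 7 differed from day 5 by 0.08 ± 0.12 (0.738) and 0.28 ± 0.12 (0.115). These steps share their day 6 samples, so they are not independent. In the second libraries alone the fall in sgRELA was -0.41 ± 0.14 and lost its call (adjusted p = 0.0947, the highest over all alternatives, from 1.08e-08). Depth and mitochondrial share also varied between days. Mitochondrial genes took 7.10 to 9.998% of the counts of libraries on day 6, against 7.33 to 7.95% on day 7. On day 5 they took 6.38 to 10.9%, a range that encloses that of day 6. RNA sample totals were 18769530 to 22147753 counts on day 6 and 24051818 to 26147414 on day 7. On day 5 these totals were 21943451 to 29503934, which overlaps day 6. The part of these differences in the steps between days was not tested.

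RNF111 passed no test between days, with log2 fold changes from -0.17 to 0.01 and SE of 0.12. LDHAL6B passed none either, and no step between days was detectable at its depth. Among all genes, 8.87% were called from day 5 to day 6 in sgControl and 6.91% in sgRELA, 14.6% and 12.2% from day 6 to day 7, and 13% and 12.4% from day 5 to day 7. Of the 5 members, 1 (CCNB2) was called in the first of these comparisons in sgControl and 2 (CCNB2 and FAM81A) in sgRELA. From day 6 to day 7 it was 1 (CCNB2) in sgControl and 2 (CCNB2 and MYO1E) in sgRELA, and from day 5 to day 7 it was 0 and 2 (MYO1E and FAM81A).

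**Figure D4:**
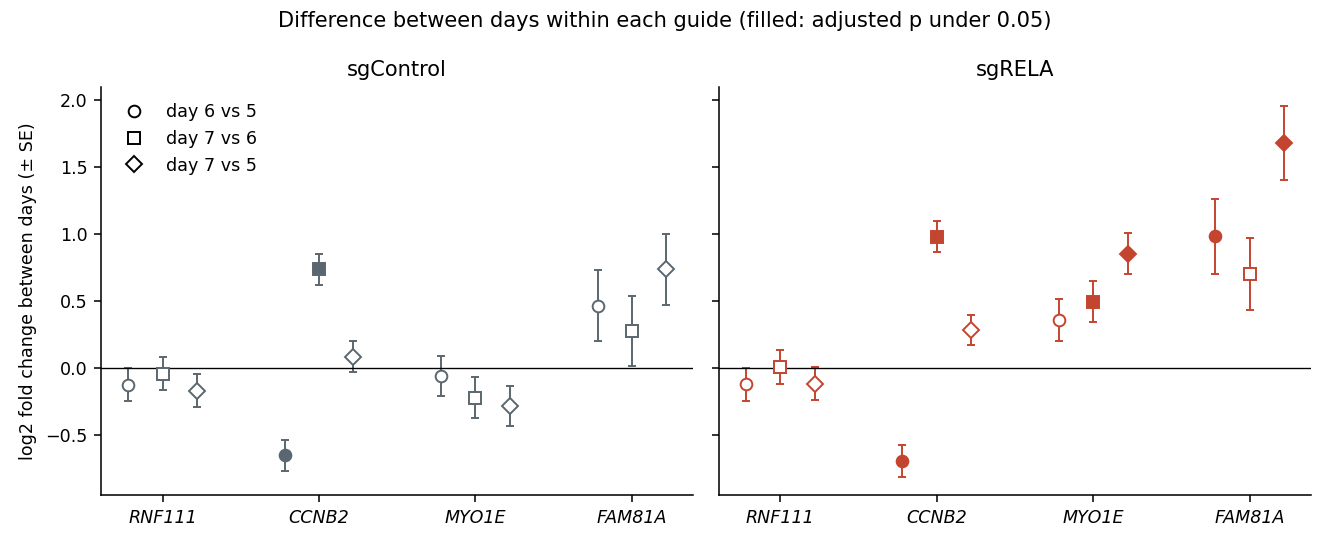
Log2 fold change between days (y axis, ± SE) in sgControl (left) and sgRELA (right) for the 4 genes with enough counts, with filled symbols where the adjusted p is under 0.05. CCNB2 has the same fall and rise in both panels, and MYO1E and FAM81A have filled symbols in sgRELA only, where MYO1E reaches 0.85 and FAM81A 1.68 for day 7 against day 5. In sgControl that difference is -0.29 for MYO1E and 0.74 for FAM81A. A filled symbol in 1 panel and an open one in the other is no test of a difference between guides.

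Whether the difference between guides changed over the days was tested with the interaction of guide and day. This interaction compares the daily differences between guides, which were used in the choice. For MYO1E, LDHAL6B and FAM81A it is therefore not independent of the choice. For MYO1E the unadjusted p was 4.73e-05 and the adjusted p 0.431, so it was not called by edgeR's quasi-likelihood test. DESeq2's likelihood ratio test gave an adjusted p of 0.00328, and the edgeR fit without the filter on low counts 0.00247. Under the other 23 of 25 alternatives MYO1E was not called, and the adjusted p reached 1.0. FAM81A had an unadjusted p of 0.0611, LDHAL6B 0.463, CCNB2 0.299 and RNF111 0.942, each with an adjusted p of 1. Of all genes, 0.00363% were called and 4.69% had an unadjusted p under 0.05.

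RELA itself fell over the same days in sgRELA, by 1.21 on the log2 scale from day 5 to day 7 (SE 0.13, adjusted p = 6.43e-08), and its difference between guides went from 3.14 ± 0.14 on day 5 to 3.07 ± 0.14 on day 6 and 2.36 ± 0.14 on day 7. In sgControl RELA was also lower on day 6 than on day 5, at -0.47 ± 0.13 (adjusted p = 0.0223), and on day 7 than on day 5, at -0.43 ± 0.13 (adjusted p = 0.0319), and each of these calls was lost in 4 of 13 alternatives, with adjusted p up to 0.777 and 0.44. Its own interaction of guide and day was not called by edgeR (adjusted p = 0.686, and 0.00224 to 1.0 over 25 alternatives, of which 4 called it). MYO1E and FAM81A were thus furthest from sgControl on the day when RELA was highest and closest on the day when it was lowest. The samples are the same for all 3 genes, and with 3 days no relation between the genes was tested.

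**Figure D5:**
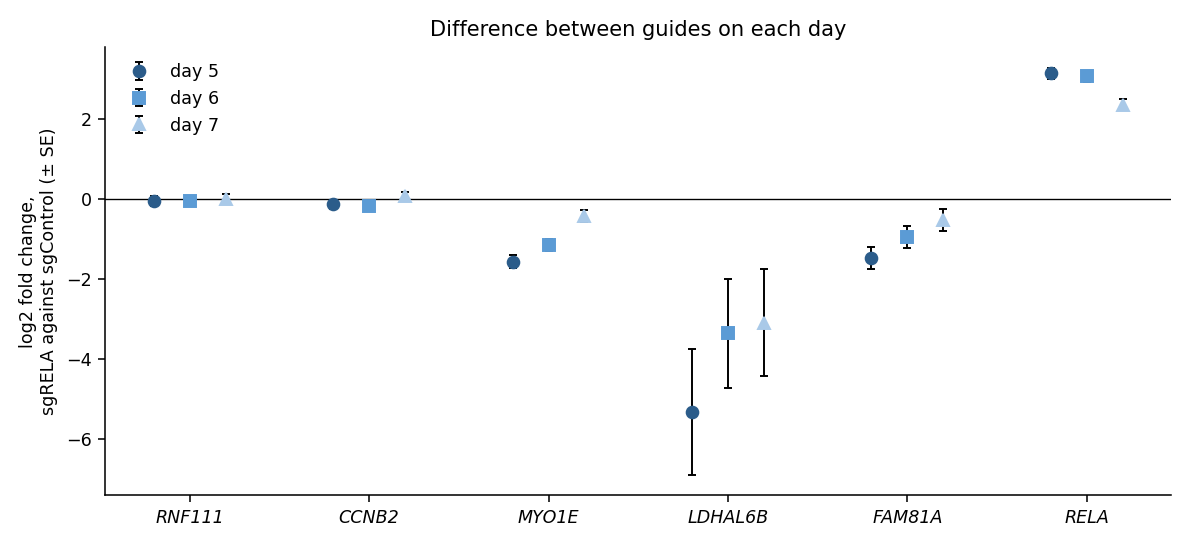
Log2 fold change of sgRELA against sgControl (y axis, ± SE) on days 5, 6 and 7 for the 5 members and RELA. MYO1E goes from -1.57 to -0.43 and FAM81A from -1.47 to -0.53 between day 5 and day 7, RELA goes from 3.14 to 2.36, and RNF111 and CCNB2 stay within 0.2 of 0.

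The relatives and partners of the members were described from lists of gene families and pathways. Their counts between guides across days stand against 0.363% of all genes called and 6.74% with an unadjusted p under 0.05, so for lists of this size 0 called is near the background. None of the 7 other class I myosins tested was called between guides across days (1 had an unadjusted p under 0.05); their median was 0.07 on the log2 scale, and DESeq2 called 0 of them. MYO1G, known from lymphocytes, was at 317.0 ± 10.5 CPM in sgControl and 333.4 ± 6.94 CPM in sgRELA (log2 fold change 0.07 ± 0.04). The SD of these CPM values and of those of MYO1F are over 3 sums per guide. Each sum adds days and libraries, so the spread between days is left out. MYO1F, the closest relative of MYO1E, was at 2.21 ± 0.683 and 2.28 ± 0.828 CPM, MYO1C at -0.26 ± 0.12 and MYO1D at 0.03 ± 0.08 on the log2 scale. MYO1G rose from day 5 to day 6 with both guides, by 0.35 ± 0.08 in sgControl (adjusted p = 0.00587) and 0.48 ± 0.08 in sgRELA (adjusted p = 0.000225), and fell from day 6 to day 7 by 0.28 and 0.29. The fall lost its call in 8 of 13 alternatives in sgControl and 4 of 13 in sgRELA, and the rise in 3 and 1, with the first libraries alone among them each time.

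None of 21 other myosins, light chains and calmodulins and none of 26 genes of clathrin-mediated endocytosis and actin nucleation was called between guides, with 4 and 1 at an unadjusted p under 0.05, medians of 0.03 and 0.04 and 0 called by DESeq2. LDHA and LDHB, the main lactate dehydrogenases, were at -0.05 ± 0.04 and 0.08 ± 0.04 between guides, and none of the 4 relatives of LDHAL6B tested was called (1 at an unadjusted p under 0.05, 0 by DESeq2). FAM81B, the only relative of FAM81A in the list, had no counts. Of 15 genes of TGF-beta signalling other than RNF111, 0 were called between guides by edgeR or DESeq2 and 4 had an unadjusted p under 0.05. The 4 of 15 here and the 4 of 21 above are larger shares than the 6.74% of all genes, and the 1 of 26 is a smaller one. Whether these shares differ from that of all genes was not tested. The genes named next were chosen as a substrate or relative of RNF111 or as a part of the pathway, not by their p. SKIL, a substrate of RNF111, was at 0.16 ± 0.16, SMAD7 at -0.07 ± 0.57 and RNF165, its relative, at -0.02 ± 0.08.

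Most partners of cyclin B2 also fell on day 6, whose libraries had the mitochondrial shares and totals given above, and rose on day 7. From day 5 to day 6, 9 of the 13 other genes of the cyclin A, cyclin B and CDK1 list fell in sgControl and 10 in sgRELA, against 5.58% and 4.34% of all genes called lower. From day 6 to day 7, 9 rose and 1, FZR1, fell in sgControl, and 10 rose in sgRELA, against 8.25% and 7.21% of all genes called higher. CCNB1, the other main mitotic cyclin B, changed by -1.002 ± 0.13 and 1.34 ± 0.13 in sgControl and by -1.04 ± 0.13 and 1.49 ± 0.13 in sgRELA. CDK1, the kinase both cyclins activate, changed by -1.13 ± 0.12 and 1.62 ± 0.12 in sgControl and by -1.06 ± 0.12 and 1.61 ± 0.12 in sgRELA. Between guides, 0 of the 13 were called across days by edgeR or DESeq2, and 1 had an unadjusted p under 0.05.

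The genes whose pattern was most like that of MYO1E over the 18 RNA samples, after the mean of each guide was subtracted, were GMPPB (r = 0.74), FAM222B (0.72), CYP2D6 (0.69), CUX1 (0.69) and ZNF461 (0.68), of 12528 genes with a mean of at least 5 CPM. FAM81A had r = 0.60 and rank 36, CCNB2 r = 0.16 and RNF111 r = -0.34, against a median of -0.01 over all genes and a top decile from 0.32. The samples share libraries, guides and days, so these values describe likeness only. With the mean of each day subtracted as well, r was 0.55, 0.60, -0.01, 0.20 and 0.67 for the 5 genes and 0.26 for FAM81A, which then ranked 2192.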

How the data were processed

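RNA was profiled by RamDA-seq in 36 libraries from 18 RNA samples, and groups and replicate numbers came from the labels. The values are raw counts per gene, deposited by the authors in 1 table without normalization per the labels. The submitters' processing notes name cutadapt 1.18, STAR 2.7.9a and GRCh38. The counting tool, annotation, strand setting and treatment of reads with several matches are not given in the sources used here, nor are molecular identifiers, so counts are reads. Of 74628 genes, 21606 had no count. A table of gene names matched 57693 identifiers, 17417 of them under the identifier itself. RNA sample totals were 18769530 to 29503934 counts.

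Counts of both libraries made from 1 RNA sample were summed, since such libraries are not replicates of a condition. All 18 sums were fitted in 1 model of 6 group means (27553 genes tested), and sums over libraries and days in a model of 3 against 3 (28888 genes tested). Tests used edgeR 4.0.16 in R 4.3.3 (TMM, filterByExpr with a minimum count of 10, quasi-likelihood F test, Benjamini-Hochberg adjustment over all genes) and called genes at an adjusted p under 0.05. SE were derived from the F statistic. Labels say transductions were separate, and p-values of the model of 18 sums measure the spread between those samples. In the model of 3 against 3 they measure the spread between sums that each add the days of 1 replicate number. Replicate numbers did not pair the samples, so which samples share a sum is arbitrary. Levels are CPM with TMM scaling. Likeness was Pearson's r of log2(CPM + 0.5) with the mean of each guide subtracted, and the 5 highest were named.

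Named were all 5 members, RELA, the 3 nearest tested genes on each side and those inside the span. From the lists of families and pathways, relatives and partners of the members were named whether or not their p was small. Motif matches, GC content and sequences are from RefSeq promoters on GRCh38.p14. Members and lists were chosen with earlier results of these data known. Alternatives were DESeq2 1.42.0, its size factors, no filter, each library set alone, a replicate block, leaving out RNA samples or 2 libraries with few detected genes, the mean of the 3 daily differences, Spearman correlations and other windows. A marker of the B-cell list and the sum over that list are not reported here.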

Additional observations from a re-analysis of the deposited data

Results flagged for a closer look

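In each group of 6 libraries, the highest and lowest library of each member was compared with the next one. Chance flags about 1 in 20 groups, and 8 of 30 searches were flagged, several of them on very low counts, and the 6 libraries are pairs from 3 RNA samples. For MYO1E, the second library of sgControl day 5 replicate 3 stood at 72.5 CPM against 38.9 to 49.3 in the other 5, and the first library of sgControl day 6 replicate 2 at 38.1 against 47.5 to 53.0 CPM. For RNF111, the first library of sgRELA day 5 replicate 3 stood at 171.0 CPM, above the other 5 (116 to 137). For CCNB2, the first library of sgRELA day 7 replicate 1 stood at 65.2 against 69.7 to 71.2 CPM.

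LDHAL6B had 4 such libraries. The second library of sgControl day 5 replicate 1 held 31 counts (2.78 CPM, others up to 0.832) and the second of sgControl day 7 replicate 3 held 32 (2.38 CPM, others up to 0.745). In sgRELA the second library of day 5 replicate 3 held 1 count (0.0751 CPM, others 0), and the first of day 7 replicate 3 held 4 (0.333 CPM, others up to 0.0822).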

How the results depend on the processing

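The log2 fold change of MYO1E between guides across days kept its sign in all 14 alternatives, from -1.08 to -0.93. On day 5 it was -1.28 with library 1 only and -1.84 with library 2 only, against -1.57. That of LDHAL6B across days was -2.50 with library 1 only and -4.70 with library 2 only, against -3.73. No call between days of the members, RELA, MYO1G, CCNB1 or CDK1 changed sign. The number of members called from day 5 to day 7 in sgControl went from 0 to 1 with DESeq2, without the filter and with the replicate block (FAM81A each time), and was 0 to 1 without 1 RNA sample. From day 5 to day 6 in sgRELA it was 1 in either library set, against 2, and 1 to 2 without 1 RNA sample, and from day 6 to day 7 it was again 1 in either set and 1 to 2, and 3 with DESeq2, which added FAM81A. From day 5 to day 7 in sgRELA it was 0 with library 1 only and 3 with DESeq2, which added CCNB2. For the interaction it was 1 with DESeq2 and 1 without the filter, against 0. Genes called across days were 105, with 42 in library 1, 49 in library 2, 221 without the filter and 235 with DESeq2, and 66 to 79 without 1 replicate. By day they were 38 (15 to 73), 59 (15 to 126) and 25 (13 to 55), lowest in library 1 each time. Between days they were 2445 (430 to 3474), 4012 (1879 to 4853) and 3585 (820 to 4423) in sgControl and 1904 (196 to 2898), 3368 (961 to 4157) and 3420 (669 to 4371) in sgRELA, lowest in library 1, and for the interaction 1 (0 to 24). Windows of 0.5 and 2 Mb held 25 and 48 tested neighbours, 0 called.

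Replicate numbers did not pair the samples: correlations of their deviations were -0.011 to 0.096 between guides and -0.2 to 0.057 between days, and a sample correlated best with its own number in 8 of 18 and 9 of 36 comparisons. Beside FAM81A above, the replicate block changed no call of a member and took the interaction from 1 gene to 0. Depth limits LDHAL6B and the other low-count rows, where 1 library can hold most counts.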
